A study of Homo sapiens with 9 samples.

Results

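The late phase of the response to ETO2-GLIS2 was described from 2 of the 9 libraries of the series, those of the U937 ETO2-GLIS2 line at 12 h and at 48 h of doxycycline. U937 is a human monocytic leukaemia line, and the genes described are the 11876 of the 60623 in each file with a mean of at least 1 FPKM over both libraries. The study sequenced RNA from 3 stable lines, with AML1-ETO (clone #4), with ETO2-GLIS2 (clone #14) or with the empty vector, after 12 and 48 h with 5 μg/ml doxycycline and before it, at 0 h. The constructs were HA-tagged cDNAs in a retroviral vector with puromycin selection, and the drug switched them on. Each fusion line was 1 selected clone and each condition 1 library, so no difference has a replicate check and no p-value was computed. The change was the log2 ratio of the 48 h to the 12 h level, each with 0.1 FPKM added, so the ratios of low genes come out too small. Genes more than 2-fold apart are said to have risen or fallen. The empty vector line over the same hours was the background, and its 2 libraries are not shared with the ETO2-GLIS2 line.

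ETO2-GLIS2 is the product of an inversion on chromosome 16 found in childhood acute megakaryoblastic leukaemia. It joins most of ETO2 (encoded by CBFA2T3), a corepressor that binds DNA only through other factors, to the zinc fingers of GLIS2, which bind G-rich sites. Early targets of an induced factor answer to it within hours, while changes that appear later also include the answer of the cell to those targets, such as slower division, stress or a shift in maturation.

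The libraries held 17885141 reads on genes at 12 h and 16357913 at 48 h in the ETO2-GLIS2 line, and 15136398 and 15391975 in the empty vector line. Intervals are at 95%, were worked out from reads recovered from the FPKM, and describe counting error alone. The 2 genes joined in the construct had made most of their rise by 12 h. Reads on them may come from the construct or from the cell's own genes, which were not separated. CBFA2T3 (ENSG00000129993) had 4.10, 11.4 and 12.6 FPKM at 0, 12 and 48 h, and GLIS2 (ENSG00000126603) had 2.39, 6.79 and 8.85 FPKM. Their late log2 changes of 0.15 (interval 0.04 to 0.27) and 0.38 (0.21 to 0.54) were inside 2-fold, against early ones of 1.45 and 1.47. In the empty vector line CBFA2T3 went from 6.38 to 6.0 FPKM and GLIS2 from 3.64 to 3.72 FPKM over the late hours. Exons of other genes on the reverse strand cover 8.38% of CBFA2T3 and 23.5% of GLIS2 exon bases. Of 11 markers of the monocytic line, 8 had at least 1 FPKM in each library. Markers of other cell types were few: NKG7 was the only one of 9 T and NK cell markers above 1 FPKM, 3 of 5 B cell markers were present at 3.78 FPKM or less, GP1BA was the only one of 7 megakaryocyte markers, and none of 7 erythroid and 6 epithelial and stromal markers reached 1 FPKM in the ETO2-GLIS2 libraries. The erythroid factor KLF1 was at 1.37 FPKM in the empty vector line at 48 h.

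Between 12 h and 48 h, 628 genes (5.29%) rose and 237 (2.0%) fell in the ETO2-GLIS2 line. In the empty vector line 248 of the same genes (2.09%) rose and 269 (2.27%) fell. At this floor, set on the ETO2-GLIS2 libraries alone, rises outnumbered those of the background and falls did not. Among protein coding genes with a mean of at least 5 FPKM both did, with 81 and 69 against 28 and 27. Without the genes that passed 2-fold in the same direction in the empty vector line, 545 (4.59%) had risen and 174 (1.47%) had fallen. The median log2 change over all genes was 0.06, with an SD over genes of 0.64, and 0.00 with an SD of 0.56 in the empty vector line. Over the 7284 genes with a mean of at least 5 FPKM, the changes of the 2 lines had a Pearson correlation of 0.42 as a description across genes, which are not independent.

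Most of the genes that changed late had been within 2-fold in the first 12 h. Of the genes that rose, 454 (72.3%) had been within 2-fold from 0 h to 12 h, 98 had risen in those hours already and 76 had fallen. Of the genes that fell, 163 (68.8%) had been within 2-fold, 11 had fallen and 63 had risen. The share within 2-fold over all genes tested was not worked out, so no excess over it can be read here. Both steps share the 12 h library, so a chance error in it moves them in opposite directions.

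Many of the genes that rose were weakly expressed or did not encode proteins. Of the rises 79.0% had a mean under 5 FPKM, as had 65.4% of the falls and 38.7% of all genes tested. Protein coding genes made up 33.8% of the rises and 50.4% of the falls found in the annotation, against 82.5% of all genes tested. The whole counting interval lay past 2-fold for 137 rises and 73 falls. Among the 6802 protein coding genes with a mean of at least 5 FPKM, where counting error is small, 81 (1.19%) rose and 69 (1.01%) fell, against 28 and 27 in the empty vector line. The genes named below were taken mainly from these.

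**Figure D1:**
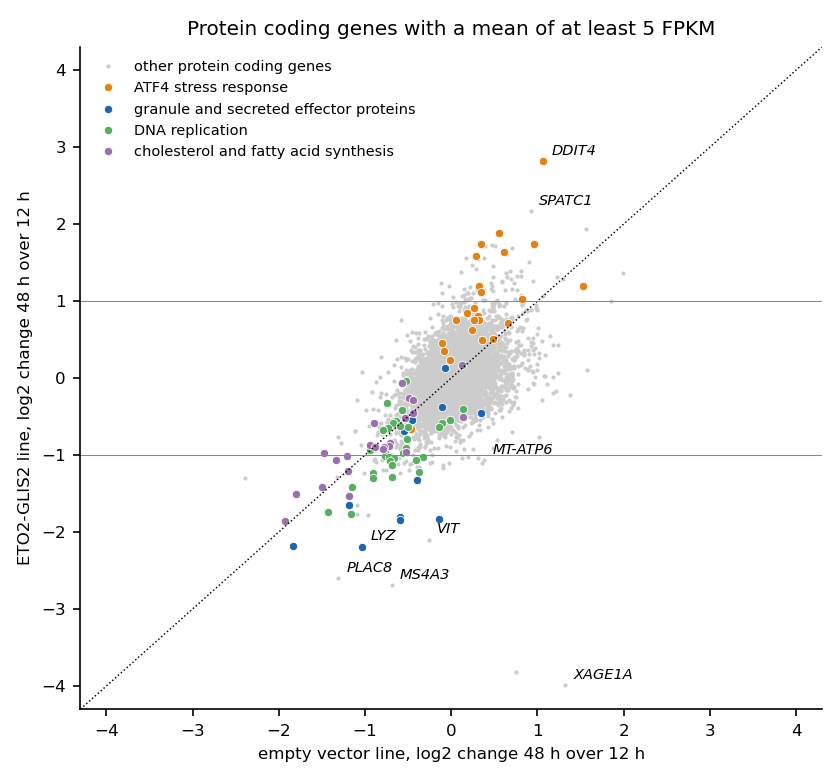
Log2 change from 12 h to 48 h in the ETO2-GLIS2 line (vertical) against that in the empty vector line (horizontal) for the 6802 protein coding genes with a mean of at least 5 FPKM, 1 point per gene, with members of 4 gene groups coloured and the dotted line marking equal change. Genes of the ATF4 group such as DDIT4 lie above the dotted line, MS4A3, VIT and XAGE1A lie far below it, and the cholesterol genes lie along it.

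The length of the transcript went with the change in both lines, in opposite directions. Among the 1701 coding genes with the shortest exons (207 to 3273 bases, at least 5 FPKM) the median log2 change was -0.06 in the ETO2-GLIS2 line and 0.14 in the empty vector line. Among the 1699 with the longest (7294 to 40896 bases) it was 0.09 and -0.04. The differences of short genes between the lines therefore carry an offset of this size. It was taken off from the medians of gene groups as an alternative, and its part in single genes was not tested.

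Genes of the stress response driven by ATF4 had the highest median change among the gene groups with 10 or more measured members. ATF4 is translated when the kinases of the integrated stress response phosphorylate eIF2α, and it raises genes for amino acid uptake and synthesis, glutathione turnover and feedback on the response. Of 25 measured genes of this group 10 rose and none fell, beside 5.29% and 2.0% of all genes tested. The median log2 change was 0.85 against 0.06 over all genes, and 24 of the 25 were higher at 48 h. The empty vector line gave a median of 0.32 with 2 rises, and the AML1-ETO line over the same hours a median of 1.0. Only ALDH18A1, of proline synthesis, was lower, at 49.0 and then 30.9 FPKM.

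DDIT4 (ENSG00000168209), an inhibitor of mTORC1 known as REDD1, had the largest rise of all protein coding genes with at least 5 FPKM. Its level went through 3.14, 2.75 and 20 FPKM at 0, 12 and 48 h, a late log2 change of 2.82 (interval 2.52 to 3.11). Over the same hours the empty vector line had 1.77, 8.85 and 18.7 FPKM. The lines thus ended close to each other, and at 12 h the ETO2-GLIS2 line was still near its 0 h level while the empty vector line was not.

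SESN2, a sensor of leucine that also restrains mTORC1, followed the same course, with 9.35, 16.2 and 48.7 FPKM against 14.4, 38.3 and 47.0 FPKM in the empty vector line. TRIB3, a pseudokinase that binds ATF4 and AKT, had 14.8, 12.6 and 39.4 FPKM against 17.2, 34.5 and 52.8 FPKM. CHAC1 (ENSG00000128965), which degrades glutathione, had 1.30, 2.54 and 8.67 FPKM against 1.65, 9.41 and 12.0 FPKM. In all 3 genes the empty vector line had made most of its increase on the log2 scale by 12 h and the ETO2-GLIS2 line made most of its own afterwards. The log2 changes from 12 h to 48 h were 1.58, 1.64 and 1.74, and they exceeded those of the empty vector line by 1.29 (interval 1.16 to 1.42), 1.03 (0.87 to 1.18) and 1.39 (1.0 to 1.78).

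The group took this course as well. At 12 h the median gene of the ATF4 group was lower in the ETO2-GLIS2 line than in the empty vector line by a log2 difference of -0.64, with 3 of 25 genes above it, and at 48 h the difference was -0.07, with 12 of 25 above. The levels were closer at 48 h than at 12 h for 22 of the 25 genes, as they were for 6536 of all 11876 genes tested and for 26 of 30 nuclear genes of the respiratory chain. ATF4 itself went from 154 to 217 FPKM, against 194 and 249 FPKM.

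The remaining members that rose have distinct roles. ATF5, a relative of ATF4, went from 5.43 to 20.4 FPKM, against 13.3 and 19.5 FPKM in the empty vector line. Genes of the reverse strand lie over 19.5% of its exon bases. The cystine transporter SLC7A11 went from 5.59 to 18.9 FPKM, against 6.67 and 13.1 FPKM. CTH, which makes cysteine, went from 7.81 to 18.1 FPKM, against 14.0 and 17.5 FPKM. PSAT1, of serine synthesis, was a high gene that rose in both steps, with 51.5, 116 and 253 FPKM. The empty vector line had 60.9, 181 and 231 FPKM, with an early log2 change of 1.57 against 1.17. DDIT3, which encodes CHOP, went from 3.42 to 8.0 FPKM (reverse-strand genes over 31.6% of its exon bases), and PPP1R15A, the phosphatase subunit that ends the response, from 19.5 to 39.9 FPKM. For DDIT3 and PPP1R15A the empty vector line changed alike, from 2.93 to 8.65 FPKM and from 27.7 to 49.0 FPKM, and the difference in log2 change was -0.33 (interval -0.89 to 0.23) for DDIT3.

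Cytosolic tRNA synthetases, several of which ATF4 raises, stayed within 2-fold. Their median over 18 genes was 0.27 against 0.04 in the empty vector line, the highest being WARS (49.4 to 83.6 FPKM), CARS (5.96 to 10.1 FPKM) and GARS (77.0 to 121 FPKM). Chaperones and sensors of the endoplasmic reticulum, another arm of the stress response, had a median of 0.06 over 22 genes and none rose. PDIA4, a disulfide isomerase, fell from 158 to 73.0 FPKM, against 91.1 and 66.2 FPKM in the empty vector line.

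The promoter of CHAC1 is shown because the C/EBP-ATF response element, the site ATF4 occupies with a C/EBP partner, lies in it. The letters searched were TGATGNAA on both strands, within 250 bases before and 50 bases after the start of each gene in the RefSeq table of GRCh38.p14. The stretch runs 5′ to 3′ on the strand of the gene at chr15:40953222-40953309, before the start of transcription, with the match in capitals, where it reads on the opposite strand.
CHAC1: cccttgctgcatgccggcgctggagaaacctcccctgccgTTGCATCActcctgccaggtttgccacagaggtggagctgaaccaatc
Among the 20 ATF4 group genes with a listed promoter the letters stood in 4 (ATF3, CHAC1, SLC3A2 and SLC7A1), against 3.67% of all 27305 promoters. Of these 4 genes only CHAC1 rose. Among all protein coding genes that rose, 3 of 143 held the letters (S100P, CHAC1 and C1orf54, 2.10%), and among those tested 116 of 7899 (1.47%). A match is a run of letters and no evidence of binding.

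**Figure D2:**
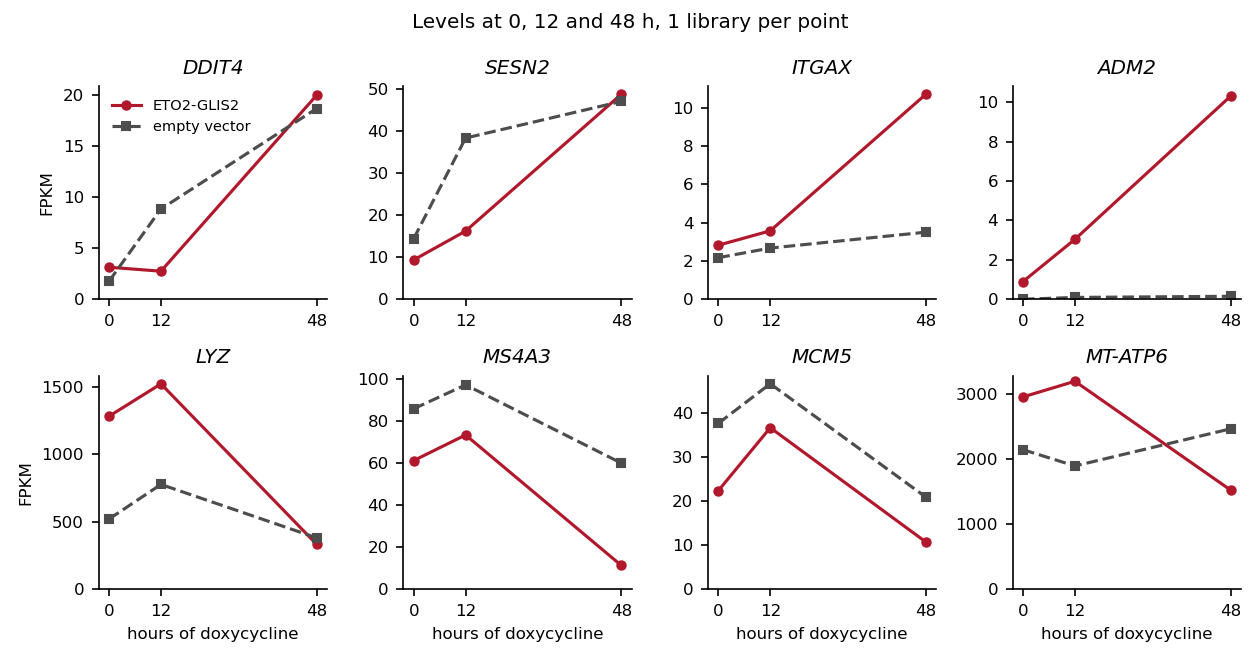
FPKM (vertical, linear from 0) at 0, 12 and 48 h of doxycycline (horizontal) for 8 genes in the ETO2-GLIS2 line (red circles) and the empty vector line (grey squares), 1 library per point. DDIT4 and SESN2 reach the level of the empty vector line at 48 h, ITGAX and ADM2 depart from it, and LYZ, MS4A3, MCM5 and MT-ATP6 are lower at 48 h than at 12 h in the ETO2-GLIS2 line.

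A second set of rises left the empty vector line behind. ITGAX (ENSG00000140678), which encodes the integrin CD11c of macrophages and dendritic cells, had 2.82, 3.57 and 10.7 FPKM at 0, 12 and 48 h, against 2.17, 2.67 and 3.50 FPKM. ITGAM, which encodes CD11b, a marker of myeloid maturation used in the study, had 2.23, 4.56 and 11.5 FPKM, against 1.17, 2.0 and 2.78 FPKM. Both integrins rose late, with log2 changes of 1.56 (interval 1.40 to 1.71) and 1.31 (1.16 to 1.46) that exceeded those of the empty vector line by 1.18 and 0.83. In the AML1-ETO line ITGAM went from 1.24 to 0.832 FPKM and ITGAX from 2.34 to 6.86 FPKM over the same hours.

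ADM2 (ENSG00000128165), which encodes the peptide hormone intermedin, was high in the ETO2-GLIS2 clone alone. It had 0.898, 3.04 and 10.3 FPKM there, at most 0.151 FPKM in the empty vector line and at most 0.0153 FPKM in the AML1-ETO line. Since it was present in this clone at 0 h, the clone and the construct cannot be told apart for its level. It rose in both steps, by log2 changes of 1.65 and 1.72.

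Other surface and signalling genes were in the same set. P2RX7, the ATP-gated channel of macrophages, went from 7.71 to 22.9 FPKM (empty vector line 14.5 to 16.3 FPKM), with an antisense gene over 33.0% of its exon bases. DLK1, a ligand of the Notch family, went from 3.30 to 10.3 FPKM (4.02 to 4.83 FPKM), the calcium channel subunit CACNA2D4 from 3.81 to 10.7 FPKM (3.58 to 4.23 FPKM), and CD101, an inhibitory receptor of myeloid cells, from 5.48 to 12.4 FPKM (2.81 to 3.14 FPKM). ARHGEF3, a guanine nucleotide exchange factor, rose in both steps, with 2.52, 6.63 and 17.8 FPKM (1.87, 5.41 and 6.63 FPKM). None of these rose in the late hours of the empty vector line, where the log2 changes were between 0.15 and 0.29.

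DUSP4, a phosphatase that ends ERK signalling, went from 4.5 to 11.9 FPKM, and PPM1M, another phosphatase, from 4.59 to 9.95 FPKM. RCN3, a calcium-binding protein of the endoplasmic reticulum, went from 4.43 to 15.0 FPKM. CDKN2D, which encodes the cell cycle inhibitor p19, dipped first and then rose, with 7.03, 4.16 and 13.9 FPKM against 4.29, 6.63 and 9.50 FPKM. SAMD9L, an interferon-inducible restraint on growth, went from 3.58 to 8.28 FPKM while it stayed at 0.979 and 0.954 FPKM in the empty vector line.

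Some rises came from genes that share sequence or position. ZNF117 and ERV3-1, the envelope gene of an endogenous retrovirus, overlap on 1 strand and rose together, from 20.3 to 59.6 FPKM and from 22.3 to 52.4 FPKM, and their reads cannot be fully told apart. SPATC1 (2.81 to 13.0 FPKM) and the pseudogene SMPD5 (3.20 to 21.1 FPKM) rose with log2 changes of 2.17 and 2.68, and SLC22A18AS, an antisense RNA, with 2.67 (1.31 to 8.84 FPKM). Changes of 0.85 to 0.94, inside 2-fold, were seen in the empty vector line for these 3 genes. The library kit does not mark strand, so reads from overlapping antisense genes cannot be told apart by strand. The effect of such overlaps on the counts was not tested. SLC22A18 covers 9.91% of the SLC22A18AS exon bases.

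Markers of the monocyte and macrophage surface moved unevenly, with a median log2 change of 0.04 against 0.15 in the empty vector line. Of 20 measured genes 5 rose (CD86, ITGAX, ITGAM, FCER1G and MERTK) and 1 fell (CCR2). Over all genes tested 5.29% rose and 2.0% fell, and of the 9724 protein coding genes tested 204 rose and 117 fell. CD86, a costimulatory receptor, had 0.205, 0.439 and 1.67 FPKM, low values that rest on 27 reads at 12 h and 94 at 48 h. MERTK, a receptor for dying cells, went from 3.38 to 7.37 FPKM. FCER1G, the signalling chain of Fc receptors, had 88.5 and 217 FPKM at 12 h and 48 h, against 54.1 and 133 FPKM. CCR2, the receptor that draws monocytes out of the marrow, fell from 4.13 to 1.18 FPKM, against 1.47 and 1.37 FPKM.

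Of 24 measured transcription factors of the myeloid programme 2 rose, EGR1 among them, and 1 fell. Over all genes tested 5.29% rose and 2.0% fell, and of the 9724 protein coding genes tested 204 rose and 117 fell. The median log2 change was 0.27 against 0.17 in the empty vector line. SPI1, which encodes PU.1, had 88.0, 76.8 and 80.9 FPKM, a late log2 change of 0.08 against 0.34 in the empty vector line. CEBPB, which the study follows, had 20.6, 19.3 and 36.4 FPKM, a log2 change of 0.91 that did not reach 2-fold, against 21, 42.1 and 50.3 FPKM in the empty vector line. Its course was that of the ATF4 group, to which it belongs. The factor that fell was IRF8, which drives monocyte and dendritic cell fate. It had 71.7, 43.6 and 18.9 FPKM, against 71.7 and 51.1 FPKM at 12 h and 48 h in the empty vector line. Of the other genes that the study names, RHOU went from 45.6 to 73.9 FPKM and ELF1 from 54.6 to 60.4 FPKM, both within 2-fold. ERG, with 1.19 and 0.677 FPKM, had a mean under 1 FPKM and was not among the genes tested.

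Genes for products of the granulocyte and monocyte granules had the lowest median change among the gene groups with 10 or more measured members. Azurophil granule proteins such as elastase and proteinase 3 are made in immature myeloid cells and their RNA is shut off as the cells mature, whereas lysozyme is made through maturation. Of 13 measured genes for granule and secreted effector proteins 8 fell and none rose, beside 2.0% and 5.29% of all genes tested. Their median log2 change was -1.65, against -0.55 and 3 falls in the empty vector line and -3.02 in the AML1-ETO line. The median difference of ETO2-GLIS2 from empty vector, gene by gene, was -0.80, and -0.60 once the median of genes of like exon length was taken off. In level, the median gene was above the empty vector line at 12 h by log2 0.52, with 11 of 13 above. At 48 h the difference was 0.08, with 8 of 13 above, so as a group these genes came down to about the level of that line. In bulk RNA, fewer cells of a type and less RNA per cell cannot be told apart.

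LYZ (ENSG00000090382), which encodes lysozyme, was among the most abundant RNAs and had 1280, 1520 and 332 FPKM at 0, 12 and 48 h. Its late log2 change was -2.19 (interval -2.22 to -2.16), against -1.03 in the empty vector line, where it had 519, 775 and 380 FPKM. SRGN, the proteoglycan that packs granule enzymes, had 2090, 2100 and 598 FPKM against 1350, 1460 and 967 FPKM. RNASE3, the eosinophil cationic protein, had 350, 357 and 99.8 FPKM against 185, 143 and 94.5 FPKM. A reverse-strand gene covers 34.7% of LYZ exon bases. These 3 genes changed by log2 0.24 or less from 0 h to 12 h and fell afterwards, and LYZ and RNASE3 came down to the levels of the empty vector line from a higher start.

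The serine proteases PRTN3 and ELANE fell in both lines. PRTN3 had 327, 254 and 55.9 FPKM, a late log2 change of -2.18 against -1.84 in the empty vector line, and ELANE had 491, 382 and 122 FPKM, with -1.65 against -1.18. RNASE2 went from 428 to 170 FPKM, against 189 and 143 FPKM. The related AZU1 (156 to 106 FPKM), CFD (31.5 to 22.9 FPKM) and CST3 (178 to 194 FPKM) stayed within 2-fold. The antimicrobial pair S100A9 and S100A8 took another path, with 3.78, 15.8 and 4.37 FPKM and 0.487, 2.76 and 0.686 FPKM, up early and back at 48 h. S100A9 also rose early in the empty vector line, by log2 1.43 against 2.03. It had 0.966, 2.77 and 2.49 FPKM there.

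MS4A3 (ENSG00000149516), a membrane protein of granulocyte and monocyte progenitors, had 61.3, 73.5 and 11.3 FPKM. Its late log2 change of -2.69 (interval -2.84 to -2.54) exceeded that of the empty vector line, where it had 86.0, 97.4 and 60.1 FPKM, by -2.00 (-2.17 to -1.82). PLAC8 had 26.0, 23.1 and 3.74 FPKM, against 28.0, 26.2 and 10.5 FPKM, and VIT, which encodes the matrix protein vitrin, 9.75, 12.6 and 2.85 FPKM, against 12.6, 18.5 and 15.5 FPKM. Unlike LYZ and RNASE3, these 3 genes ended below the empty vector line at 48 h. The AML1-ETO line at 48 h was lower still, 0.442 FPKM for MS4A3, 1.67 FPKM for PLAC8 and 0.496 FPKM for VIT.

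CXCR4, the receptor that holds cells in the marrow, went from 80.7 to 36.8 FPKM, against 63.4 and 59.6 FPKM, and the nuclear protein MNDA from 154 to 71.8 FPKM, against 97.3 and 95.5 FPKM. Among the 17 coding falls that the naming rule gave were also 3 metabolic genes with a small increase in the empty vector line. PRDX4, a peroxidase of the endoplasmic reticulum, went from 36.0 to 17.4 FPKM, and GGCT and CHAC2, both of glutathione turnover, from 10.2 to 4.91 FPKM and from 7.82 to 3.6 FPKM. An annotated gene of the same strand covers 27.7% of GGCT exon bases. CHAC1 and CHAC2, which carry out the same reaction, thus moved in opposite directions.

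Genes of DNA replication fell late, and those of mitosis did not. The helicase, clamp and polymerase genes are transcribed by E2F at the passage from G1 to S phase, and mitotic genes later in the cycle. Of 38 measured replication genes 15 fell, all of which had been within 2-fold from 0 h to 12 h, and none rose. Of all genes tested 2.0% fell, and of the 9724 protein coding ones 117 fell. The share of all genes within 2-fold from 0 h to 12 h was not worked out. The median log2 change was -0.94 after an early one of 0.34, and all 38 were lower at 48 h. The empty vector line had the median -0.58 with 3 falls, and the gene-by-gene difference between the lines had a median of -0.31. For the AML1-ETO line the median was -1.58.

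MCM5 (ENSG00000100297), a subunit of the replicative helicase, had 22.4, 36.7 and 10.7 FPKM, a late log2 change of -1.77 (interval -1.86 to -1.68), against 46.7 and 20.9 FPKM at 12 h and 48 h in the empty vector line, a change of -1.16. MCM2, MCM4, MCM3, MCM6 and MCM7 fell with it, by -1.41, -1.30, -1.13, -1.08 and -1.04, against -1.15 to -0.66. UNG, the uracil glycosylase that follows the fork, had 24.2, 41.1 and 12.2 FPKM, against 48.0 and 17.7 FPKM. PCNA, the sliding clamp, went from 222 to 110 FPKM, against 198 and 157 FPKM, and the flap nuclease FEN1 from 48.1 to 20.5 FPKM, against 37.1 and 28.6 FPKM. PCNA and FEN1 were the members whose falls went furthest beyond the empty vector line, by -0.69 (interval -0.78 to -0.59) and -0.85 (-1.02 to -0.68), among those named here.

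E2F1, which encodes the activator itself, went from 18.6 to 7.59 FPKM, against 27.7 and 17.1 FPKM. Of 32 mitosis genes none passed 2-fold in either direction, with a median of -0.02 and a range from -0.53 (MAD2L1) to 0.41 (UBE2C). TOP2A, for one, went from 105 to 117 FPKM. Of 19 inhibitors and regulators of G1 the inhibitors CDKN1C, CDKN2D and CDKN1A rose and none fell, with a median of 0.35 against 0.12. Of all genes tested 5.29% rose, and of the 9724 protein coding ones 204 rose. CDKN1A, which encodes p21, went from 11.4 to 24.1 FPKM, against 14.3 and 25.2 FPKM, and CDKN1C, which encodes p57, from 0.361 to 1.73 FPKM on 16 and 70 reads.

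The promoters of replication genes that fell are shown because many of them hold the E2F letters. The search used TTTGGCGC and TTTCCCGC on both strands in the same windows. Each stretch runs 5′ to 3′ on the strand of its gene and ends at or before the start of transcription, with matches in capitals. They lie on GRCh38.p14 at chr6:52284869-52284956 (MCM3), chr2:135876486-135876635 (MCM6), chr16:85688955-85689025 (GINS2), chr20:33686386-33686445 (E2F1) and chr20:5126634-5126721 (PCNA), all on the minus strand.
MCM3: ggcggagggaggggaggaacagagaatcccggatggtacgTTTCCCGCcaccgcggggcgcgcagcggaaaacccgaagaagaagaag
MCM6: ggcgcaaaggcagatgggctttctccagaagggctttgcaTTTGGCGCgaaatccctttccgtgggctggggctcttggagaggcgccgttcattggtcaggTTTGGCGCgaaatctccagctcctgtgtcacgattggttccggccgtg
GINS2: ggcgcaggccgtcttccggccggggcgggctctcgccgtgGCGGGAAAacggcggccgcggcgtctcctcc
E2F1: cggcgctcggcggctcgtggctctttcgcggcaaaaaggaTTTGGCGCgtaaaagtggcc
PCNA: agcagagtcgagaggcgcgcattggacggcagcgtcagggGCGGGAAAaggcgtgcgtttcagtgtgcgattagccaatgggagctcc
The letters stood in 16 of the 33 replication genes with a promoter in the table (48.5%), in 1 of 26 mitosis genes and in 2.31% of all 27305 promoters. Among all protein coding genes that fell, 11 of 91 held them (12.1%), against 1 of 143 that rose (0.699%) and 332 of 7899 tested (4.20%). Of these 11, PCNA, MCM3, MCM6, MCM7, E2F1, GINS2 and GINS3 are on the replication list, and UHRF1, DTL, MSH6 and MMAB are not.

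RNA of the mitochondrial genome took a smaller share of the library in the late phase. Its genes for proteins of the respiratory chain and for ribosomal RNAs are transcribed as long precursors. The share of reads on its genes, from FPKM and annotated length, was 7.01%, 4.59% and 3.32% at 0, 12 and 48 h in the ETO2-GLIS2 line, while the empty vector line had 6.69%, 4.26% and 4.0%. The drop of the first 12 h was thus common to the lines, and the later one was larger in the ETO2-GLIS2 line. The AML1-ETO line had 6.14%, 3.51% and 2.54%.

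Of the 15 genes measured 3 fell, beside 2.0% of all genes tested. At 48 h 13 were lower, with a median log2 change of -0.70 against 0.01 in the empty vector line. MT-CO3, of cytochrome oxidase, had 7030, 7500 and 3340 FPKM, a late log2 change of -1.17 (interval -1.18 to -1.15), against 7090 and 6640 FPKM at 12 h and 48 h. MT-ATP6 and MT-ATP8, which share bases, had 3190 and 1520 FPKM and 259 and 127 FPKM, against 1890 and 2460 FPKM and 169 and 193 FPKM. The 2 ribosomal RNAs moved the other way, with MT-RNR1 at 820 and 1430 FPKM and MT-RNR2 at 4550 and 6660 FPKM, while the empty vector line had 1380 and 814 FPKM and 2730 and 2450 FPKM. Neither passed 2-fold, with log2 changes of 0.80 and 0.55. When the mitochondrial genes were taken out of the library totals, 623 genes rose and 244 fell.

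Nuclear genes of the respiratory chain did not pass 2-fold. Their median over 30 genes was -0.22 against 0.36 in the empty vector line, and the difference was below 0 for 29 of them. Most of these transcripts are short, and after the median of genes of like length was taken off, the difference was -0.41. In level, the median gene was above the empty vector line at 12 h by log2 0.59, with 26 of 30 above. At 48 h it was at -0.05, with 11 of 30 above, so the group came down to about the level of that line. The lowest changes were in ATP5MC1, of the ATP synthase ring (22.2 to 14.2 FPKM), and NDUFB9, of complex I (21.2 to 14.8 FPKM). Cytosolic ribosomal proteins had medians of 0.16 and 0.43 over 34 genes, none of which passed 2-fold in the ETO2-GLIS2 line. Genes of ribosome biogenesis, targets of MYC, had a median of -0.39 against -0.07 over 33 genes, after an early median of 0.33, and none passed 2-fold. NOLC1 went from 89.1 to 49.8 FPKM and NOP58 from 33.6 to 20.1 FPKM, while MXD1, an antagonist of MYC, went from 4.66 to 8.63 FPKM.

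**Figure D3:**
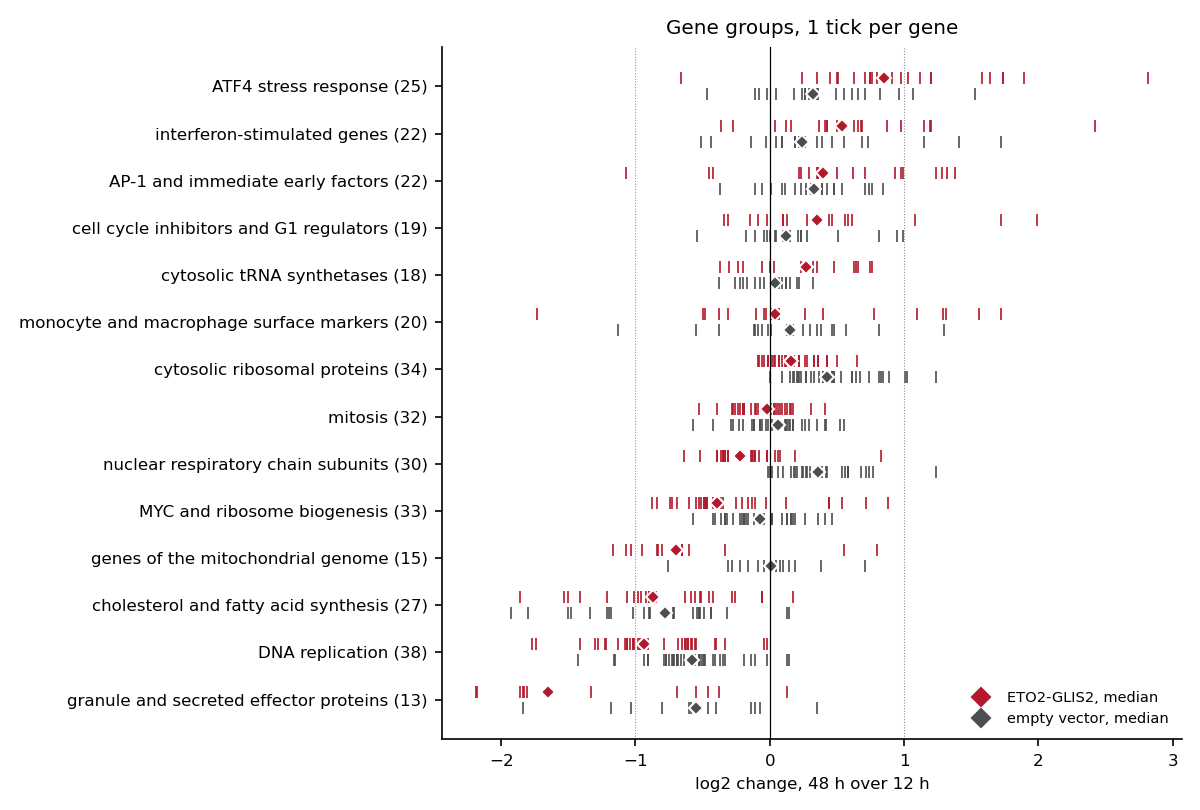
Log2 change from 12 h to 48 h (horizontal) of the members of 14 gene groups (rows, number of measured genes in brackets), 1 tick per gene, with the median as a diamond, in the ETO2-GLIS2 line (red, upper) and the empty vector line (grey, lower). The medians of the ATF4 group (0.85 and 0.32), the granule group (-1.65 and -0.55) and the mitochondrial genome (-0.70 and 0.01) stand apart between the lines, and those of the cholesterol group (-0.87 and -0.78) do not.

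The synthesis of cholesterol and fatty acids went on falling as it had begun. Of 27 genes 7 fell in the late phase, beside 2.0% of all genes tested, with a median of -0.87. In the first 12 h 21 had fallen, with an early median of -1.86. For the empty vector line the median was -0.78 with 9 falls, and the difference between the lines had a median of 0.07. INSIG1, the brake on the sterol-regulated factor SREBP, had 427, 56.3 and 15.4 FPKM, against 380, 41.0 and 10.7 FPKM, and SQLE, of sterol synthesis, 100, 26.2 and 9.02 FPKM, against 113, 23.5 and 10.3 FPKM. This group thus changed much alike in the line without a fusion.

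Of 22 interferon-stimulated genes 4 rose (IFIT2, IFIT1, SAMD9L and OAS1), with a median of 0.54, against 0.24 and 3 rises in the empty vector line and 3.89 in the AML1-ETO line. IFIT2 had 0.359, 0.453 and 2.87 FPKM, and in the empty vector line 0.357 and 1.40 FPKM at 12 h and 48 h. IRF7, a factor that drives the group, had 6.16 and 12.3 FPKM, a log2 change of 0.98, against 5.92 and 6.29 FPKM. Among 22 AP-1 and immediate early genes DUSP4, DUSP5, BATF3 and EGR1 rose and DUSP2 fell, with a median of 0.40 against 0.33. Of 23 inflammatory genes CXCL8, TNF, CXCL16 and CCL2 rose and CXCR4 fell, with a median of 0.35 against 0.18. Beside the counts of these groups, 5.29% of all genes tested rose and 2.0% fell, with a median of 0.06. Of the 9724 protein coding genes tested 204 rose and 117 fell. CXCL8, a chemoattractant of neutrophils, had 12.6, 4.67 and 12.2 FPKM and TNF 2.71, 0.90 and 2.33 FPKM. The empty vector line had 5.02, 1.27 and 5.34 FPKM and 2.49, 1.10 and 3.02 FPKM, and the difference in late change was -0.62 (interval -1.13 to -0.11) for CXCL8 and -0.09 (-0.92 to 0.74) for TNF.

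Some genes passed 2-fold in both steps. Among protein coding genes with at least 5 FPKM, 6 rose in both steps (CNR2, PSAT1, ETV5, ARHGEF3, MILR1 and ADM2). In the first 12 h CNR2, PSAT1, ARHGEF3 and MILR1 rose in the empty vector line too, by log2 1.56, 1.57, 1.48 and 1.64. ETV5 (0.49) and ADM2 (0.94) stayed within 2-fold there. Another 9 fell in both steps (all but TMEM97 and ACAT2 on the cholesterol list). All of these also fell in the first 12 h of the empty vector line. Of those that turned, 3 rose and then fell (XAGE1A, XAGE1B and S100A9) and 1 fell and then rose (CXCL8). XAGE1A (ENSG00000204379), a cancer-testis antigen, had 0.577, 13.9 and 0.781 FPKM, and XAGE1B (ENSG00000204382) 0.614, 13.5 and 0.865 FPKM. They are near-identical copies whose reads the counting could split, so they count as 1 observation. The empty vector line had 0.633 and 1.73 FPKM for XAGE1A and 1.03 and 1.79 FPKM for XAGE1B at 12 h and 48 h, and no other library of the series had more than 2.29 FPKM for either, except 8.62 FPKM for XAGE1B in the AML1-ETO line at 0 h. Their peak rests on the 12 h library alone, on 233 and 341 reads.

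Genes that do not encode proteins gave the largest ratios and the weakest evidence. The largest rise of all named genes was in MIR616, whose host is DDIT3, on 1 read at 12 h and 16 at 48 h (log2 change 3.91, interval 1.40 to 6.42), and the next in the small nuclear RNA gene RNU6-516P, on 2 and 22 reads. The pseudogene ENSG00000232546 had 9 and 51 reads. On the falling side, the pseudogene ENSG00000227329 had 41 and 2 reads, SPCS2P4 259 and 35, FABP5P7 89 and 20, MIR573 19 and 4 and MIR25 28 and 7. Reads on a microRNA gene in such libraries are fragments of longer transcripts, and pseudogene reads may come from the parent gene, so these values say nothing certain of the RNA named. Among longer noncoding RNAs MIR22HG, the host of a microRNA raised in monocyte maturation, had 0.508, 0.599 and 2.33 FPKM, against 0.465 and 0.587 FPKM at 12 h and 48 h, and FTX went from 0.753 to 1.68 FPKM.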

How the data were processed

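RNA-seq of U937 lines was used as deposited. Per the labels and the study's methods, RNA from TruSeq RNA libraries (no strand mark) was sequenced on an Illumina NovaSeq. The authors aligned reads to hg38 with HISAT2 (2.0.5), handled them with SAMtools (1.7), counted reads per gene with HTSeq (0.9.1) and deposited FPKM for 60623 genes. The annotation version is not given in the sources used here. FPKM are relative to each library's total, so a large change in a few genes shifts the rest.

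Whole reads were recovered from the FPKM for 23876 of 23889 genes (99.9%) above 0 in at least 3 libraries. They served only for counting intervals (95%, from Poisson counts, on the log2 scale) and library totals. With no molecular identifiers, reads are not separate molecules, so intervals cover counting error only. Mitochondrial shares used annotated lengths, which equalled the recovered ones for 17 of 17 genes. In gene lists, a name with several identifiers was read from the one with the highest mean. Python (3.11.15), numpy (2.4.6), pandas (2.3.3), scipy (1.17.1) and matplotlib (3.10.9) were used, and the steps were tested on simulated data.

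Called genes had a mean of at least 1 FPKM and were past 2-fold on log2(FPKM + 0.1). Named genes are the construct, genes the study names, up to 20 protein coding and 5 other genes each way with the largest late changes among those with a mean of at least 5 FPKM, past 2-fold and past 2-fold of difference from the empty vector line, and up to 6 members of each of 39 gene lists. The rule gave 20 coding rises and 17 falls. Other genes named were chosen after their values were seen. The genes, lists and comparisons were chosen with earlier results of these data known, so no list is independent support. Gene types and overlaps come from GENCODE v44 on GRCh37, by identifier, for 96.6% of genes. Promoters come from RefSeq (GRCh38.p14), found for 7899 of 9724 protein coding genes tested. Alternatives covered the pseudocount, filter, scaling, threshold and empty vector treatment. The exon length alternatives were added after seeing the data. A gene of the lists is not reported here.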

Additional observations from a re-analysis of the deposited data

Results flagged for a closer look

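The 6 results here are protein coding genes with a mean of at least 5 FPKM that passed 2-fold in the ETO2-GLIS2 line while the empty vector line moved the other way by more than counting error. No test of this difference was possible with 1 library per condition, so it was not tested. XAGE1A and XAGE1B fell with late changes lower than those of the empty vector line by -5.31 and -4.56 on the log2 scale (intervals -6.53 to -4.08 and -5.47 to -3.65). CHAC2 differed by -1.46, from 7.82 to 3.6 FPKM against 6.81 to 8.78 FPKM. MT-ATP6 differed by -1.44 and MT-ATP8 by -1.21, and their bases overlap. ERV3-1 was the single rise of this kind, by 1.35, from 22.3 to 52.4 FPKM against 29.4 to 27.1 FPKM, and it shares 16.4% of its exon bases with ZNF117.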

How the results depend on the processing

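The counts depend on the floor and the fold. The 628 rises and 237 falls became 287 and 133 with a pseudocount of 1, 2940 and 1516 with no filter, 132 and 82 at a mean of at least 5 FPKM, 1543 and 698 at 1.5-fold and 126 and 48 at 4-fold. Beyond the empty vector line, 545 and 174 became 259 and 97, 2510 and 1166, and 119 and 60 under the first 3 of these, and the falls became 284 when the empty vector change was subtracted. The 454 and 163 genes within 2-fold from 0 h to 12 h became 108 and 65 at a mean of at least 5 FPKM. A pseudocount of 0.01, rescaling by the median ratio (525 rises and 257 falls) and taking out mitochondrial genes moved no count by over 1.5 times.

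With the empty vector change subtracted, the median of the ATF4 group became 0.49 and that of DNA replication -0.31. With the median of genes of like exon length also taken off, they became 0.54 and -0.22. The granule median of -1.65 became -0.80 and then -0.60, inside its wide interval over genes. Under each of these settings the medians of 10 of 31 lists, these included, moved outside their interval, and under the pseudocount, filter, scaling and length settings none of 31 did. With the empty vector change subtracted, 165 named changes moved outside their counting interval (or by over 0.1 where there is none), 62 did not, and 8 that had passed 2-fold turned sign: CXCL8 (-0.62), FCER1G (-0.01), TNF (-0.09), IFIT1 (-0.21), SCD (0.27), FADS2 (0.09), DHCR7 (0.30) and INSIG1 (0.07). The cause was not tested. No paired analysis was possible because each condition has 1 library.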

Other observations

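The genes here are given as single values. The counts of 1 rise in 25, 21 and 29 genes stand beside the 5.29% of all genes tested that rose. Of the 9724 protein coding genes tested 204 rose. VEGFA, the growth factor of blood vessels, had 5.70, 8.24 and 26.7 FPKM at 0, 12 and 48 h in the ETO2-GLIS2 line, against 15.6 and 25.4 FPKM at 12 h and 48 h in the empty vector line, and it was the single rise among 25 measured genes of glycolysis and the hypoxia response, whose median was -0.06. MT2A, a metal-binding protein, went from 68.3 to 261 FPKM, against 41.6 and 123 FPKM. PMAIP1, which encodes the death effector NOXA, rose from 8.51 to 18.8 FPKM, against 9.55 and 16.3 FPKM, and was the single rise among 21 apoptosis regulators. CTSK, a cathepsin of osteoclasts, was the single rise among 29 lysosome genes, from 0.705 to 1.81 FPKM.

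Other letters were searched in the same promoters on both strands. The GLIS core TGGGGGGT, which the zinc fingers of the fusion bind, stood in 5 of 143 protein coding genes that rose (CYP1A1, TMIGD3, NEIL1, RHBDL1 and APOE), in 1 of 91 that fell and in 84 of 7899 tested (1.06%). The PU.1 letters GAGGAAGT stood in 6 of 143, 4 of 91 and 215 of 7899 (2.72%), and the ETS letters ACTTCCGG in 4 of 143, 4 of 91 and 797 of 7899 (10.1%). The E-box CACGTG stood in 7 of 143, 11 of 91 and 845 of 7899 (10.7%), and the interferon-stimulated response element in 5 of 143, 2 of 91 and 222 of 7899 (2.81%). TCACNCCAC of sterol-regulated genes stood in 3 of 143, 0 of 91 and 81 of 7899 (1.03%), and the C/EBP letters TTGCGNAA or TTGCNNAAT in 3 of 143, 4 of 91 and 192 of 7899 (2.43%).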
